A study of Arabidopsis thaliana with 12 samples.

Results

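The comparison set 3 arrays of callus formed by Arabidopsis thaliana that expresses WIND1 from the 35S promoter against 3 arrays of callus that wild-type tissue formed on the synthetic auxin 2,4-D. These 6 arrays were chosen by their titles out of 12 arrays in the series. The 35S:WIND1 callus had the genotype 35S:WIND1 in the strain Col-0 and received no treatment, and the 35S promoter drives its gene in most plant cells. The 2,4-D-induced callus was wild-type Col-0, both formed and maintained on 500 µg/L 2,4-D. All tissue grew on solid MS medium, and each array came from a different callus. The labels give neither the number of transgenic lines, the age of the calli nor the organ from which the 2,4-D-induced callus grew. The other arrays were 3 of T87 callus, kept on 500 nM of the auxin NAA, and 3 of untreated Col-0 seedlings of 14 days, and their levels are given below only as a description.

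Callus is a mass of dividing plant cells without organs. WIND1 is a transcription factor of the AP2/ERF family that is induced at wounds and promotes the return of differentiated cells to division, so its constant expression gives callus without added hormone. Callus on medium rich in auxin is known to form through the programme that starts a lateral root, with PLETHORA and LBD factors downstream of auxin response factors. Shoot formation from callus, in contrast, rests on cytokinin signalling and on WUSCHEL, a homeobox factor that keeps shoot stem cells. The comparison asks how callus made through WIND1 differs in transcript levels from callus made through auxin.

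Levels are processed signals on the log2 scale with the array's own 75th percentile set to 0, so 0 is the brightness at that percentile, and a difference of 1 is a 2-fold difference. A gene was tested where its probe was well above background, by the scanner software's own flag, on all 3 arrays of at least 1 of the 4 groups, which 21345 genes met. A gene was called changed at a Benjamini-Hochberg adjusted p under 0.05 from limma's two-sided test and a change of at least 2-fold. Errors of changes are standard errors (SE) with n = 3 arrays in each callus. They rest on limma's estimate of the spread over all 12 arrays, seedlings and T87 callus included. Where no array of the dimmer callus was well above background, only a lower bound is printed, as at least N-fold. This bound sets the brighter callus's mean against a mean for the dimmer callus. On each array, the latter takes the higher of the gene's own signal and the lowest signal among probes well above background. Calls use the fitted change and not the bound. Some called genes, such as LFY, WIND4, YAB5 and GH3.9, therefore have bounds under 2-fold and do not meet the threshold at their bounds. LEC2 and SHP2 were called without a printed bound. The 75th percentile was 2597, 3716 and 2257 signal units in replicates 1 to 3 of 35S:WIND1 callus, and 2763, 2196 and 3205 units in those of 2,4-D-induced callus. Between 62.7% and 65.9% of spots were above background on the 35S:WIND1 arrays, and between 57.1% and 64.2% on the 2,4-D arrays, and no spot was saturated. All arrays of a group held the same position on their slides, so position and group cannot be told apart.

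WIND1 itself (AT1G78080) was measured on all 6 arrays. Its level was 3.9, 3.2 and 3.62 in 35S:WIND1 callus, against 3.15, 2.74 and 2.7 in 2,4-D-induced callus. Every 35S:WIND1 array lay above every 2,4-D array. The difference was 0.71 ± 0.21 (SE), a 1.64-fold difference, with an adjusted p of 0.0177 from limma, and it missed the 2-fold threshold. Leaving out each array in turn gave differences between 0.55 and 0.90. The adjusted p was above 0.05 without 35S:WIND1 replicate 1 (0.058), 2,4-D replicate 2 (0.0609) or 2,4-D replicate 3 (0.0605), with normexp correction (0.0944), with median scaling (0.161, difference 0.39) and in a fit of the 6 arrays alone (0.0692), all by limma. Seedlings had a mean level of 1.26 and T87 callus 2.27, both below the 2 calli compared. The sources used here do not say whether the probe reads the transgene's transcript as well as that of the native gene.

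Transcript levels differed widely between the calli. Of the 21345 genes tested, 6075 (28.5%) were called, with 3582 (16.8%) higher and 2493 (11.7%) lower in 35S:WIND1 callus. Signals below background entered the test, so the called genes include some below background in both calli, such as AT3G50120. The number of such genes was not counted. The median change over all genes tested was -0.07. The split depended on scaling: 59.0% of called genes were higher in 35S:WIND1 callus here, 42.8% with each array scaled by its median and 82.5% with the authors' deposited values, where the median change of all genes was -0.39 and 0.58. Signals well above background were found on all 3 arrays of 35S:WIND1 callus and on none of 2,4-D-induced callus for 655 genes (3.07%). The reverse was found for 235 genes (1.1%). For 11437 genes (53.6%) the 3 values of one callus did not overlap the 3 of the other, and 5823 of the called genes were among them. Arrays of 35S:WIND1 callus correlated across genes at 0.944 to 0.956 with each other, those of 2,4-D-induced callus at 0.977 to 0.986, and arrays of different calli at 0.801 to 0.832. These correlations run over 20955 genes of the same arrays, and genes are not independent replicates. The spread was larger in 35S:WIND1 callus, where the median SD over 3 arrays was 0.357, against 0.20 in 2,4-D-induced callus. With normexp background correction, which damps changes of dim genes, 1650 genes were called higher and 971 lower.

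The genes described next were taken from 37 lists of pathways, families and markers with 663 members. List medians use the fitted changes of all tested members, also of those below background in one callus, and the median with such members at their bounds is given where it moved most. In bulk tissue, fewer cells of a type and less RNA per cell cannot be told apart, which holds for every tissue marker below. A plot of calls by list shows the split: lists for photosynthesis, shoot meristem, xylem and glucosinolates stood at the higher end, and lists for root meristem, A-type response regulators, Aux/IAA repressors and hypoxia at the lower end.

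**Figure D1:**
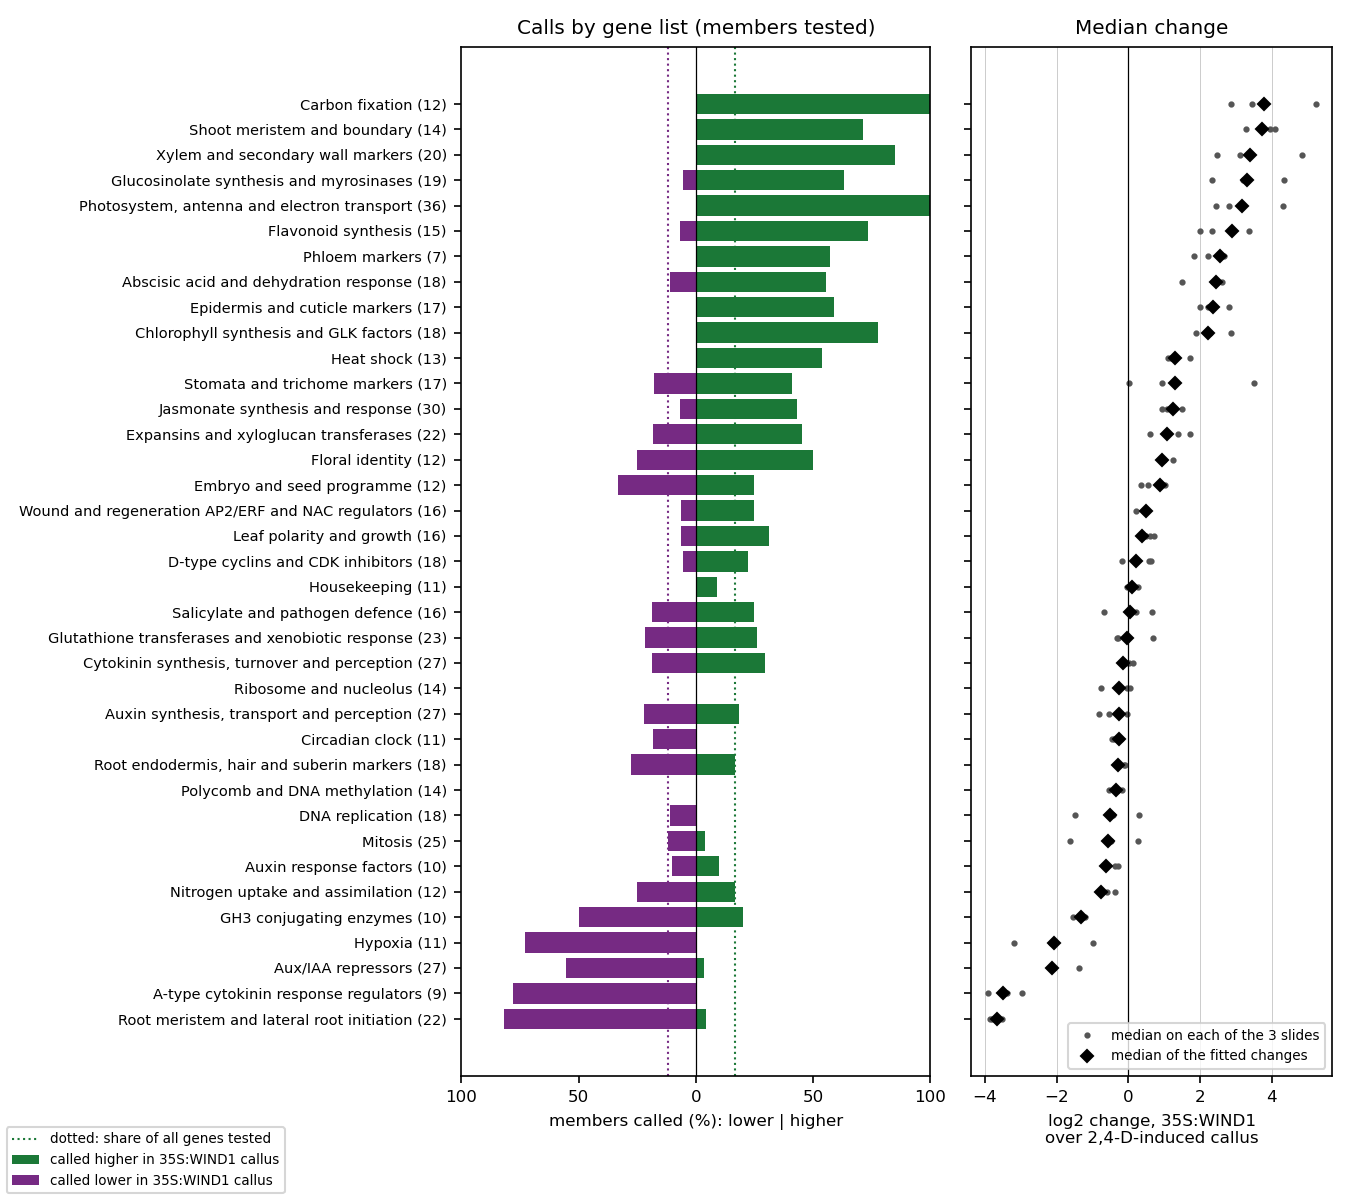
Left, share of the tested members of each gene list (number in brackets) that were called higher (green, right) or lower (purple, left) in 35S:WIND1 callus, in percent, with dotted lines at the shares of all genes tested (16.8% and 11.7%). Right, median log2 change of each list (35S:WIND1 over 2,4-D-induced callus, diamonds) and the median on each of the 3 slides (dots). Carbon fixation genes lie at the top with a median of 3.78, and root meristem genes at the bottom with -3.66.

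Genes that maintain the shoot meristem were higher in 35S:WIND1 callus. Of 14 members tested, 10 rose and 0 fell, and the median change was 3.73, or 3.28 with members below background at their bounds, against -0.07 over all genes tested. WUSCHEL (WUS, AT2G17950), the homeobox factor of the stem cell organizer, had levels of 0.42, 1.21 and -0.35 in 35S:WIND1 callus and stayed below background on all 3 arrays of 2,4-D-induced callus, with signals of -8.12, -7.14 and -8.97. CLAVATA3 (CLV3, AT2G27250), the peptide that stem cells send to restrain WUS, had levels of 2.54, 1.39 and 0.23 in 35S:WIND1 callus and signals of -7.83, -7.60 and -7.02 in 2,4-D-induced callus, again below background on all 3 arrays. Both genes thus had a clear signal in every 35S:WIND1 callus and none in any 2,4-D-induced callus. The rise was at least 118-fold for WUS (adjusted p = 2.83e-06) and at least 231-fold for CLV3 (adjusted p = 2.65e-06), both by limma. Seedling signals of both were also low, at means of -8.13 for WUS and -6.93 for CLV3.

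The other shoot genes that rose were ATH1, a homeobox partner of the KNOX factors, at least 111-fold, and HEC1, a bHLH factor of the meristem and the gynoecium, at least 8.15-fold. SHOOT MERISTEMLESS (STM), the KNOX factor that keeps cells undifferentiated, rose by 4.46 on the log2 scale. CLV1, the receptor of CLV3, rose by 3.98, RAX1, a MYB factor of axillary meristems, by 4.29, and the boundary genes CUC3 and CUC1 by 3.47 and 3.09. KNAT2 rose by 2.61. The members that were not called were KNAT1 with a difference of -0.16, CUC2 with -0.51, KNAT6 with -0.55 and LAS with -0.57, so the KNOX and CUC families were split. In 18 other settings of the processing, between 6 and 10 shoot members were called higher and 0 lower.

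Genes of the root meristem and of lateral root initiation went the other way. Of 22 members tested, 18 fell and 1 rose, with a median change of -3.66, or -3.09 with members below background at their bounds. Other settings called 5 to 19 members lower, with medians between -3.98 and -1.40, and the 5 came with normexp correction and with the filter of all 6 arrays above background, which left 8 members. BABY BOOM (BBM, AT5G17430), a PLETHORA-type AP2 factor of root and embryo, had signals of -8.71, -8.34 and -6.16 in 35S:WIND1 callus, above background on 1 array, and levels of 2.07, 2.66 and 2.65 in 2,4-D-induced callus. PLT2 (AT1G51190) was below background on all 3 arrays of 35S:WIND1 callus, with signals of -8.90, -8.72 and -8.38, and had levels of 0.87, 0.99 and 1.43 in 2,4-D-induced callus. PLT1 (AT3G20840) had signals of -8.91, -8.64 and -8.87 in 35S:WIND1 callus, all below background, and levels of -0.12, 0.18 and 0.72 in 2,4-D-induced callus. The 3 PLETHORA genes were therefore bright in every 2,4-D-induced callus, and PLT1 and PLT2 were below background in every 35S:WIND1 callus. The fall was at least 218-fold for PLT2 (adjusted p = 1.96e-07) and at least 122-fold for PLT1 (adjusted p = 1.44e-08), and BBM fell by 10.20 ± 0.58 (SE), all by limma. Seedling means were -3.18 for BBM, -3.99 for PLT2 and -5.28 for PLT1, below those of 2,4-D-induced callus.

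The LBD factors, which act downstream of auxin in lateral root founder cells, fell together. LBD16 fell by 4.73 on the log2 scale and LBD33 by 2.74, LBD33 with 1 array of 35S:WIND1 callus above background. LBD17, LBD18 and LBD29 were below background on all 35S:WIND1 arrays and fell at least 27.8-fold, 3.33-fold and 2.35-fold. WOX5, the homeobox gene of the root quiescent centre, fell by 2.5, WOX12, which acts in root founder cells, fell by 3.91, and its relative WOX11 fell at least 2.43-fold. Root cap factors fell too: SMB by 3.14, and FEZ, BRN1 and BRN2 at least 18.7-fold, 11.9-fold and 8.18-fold. TMO7, a target of the auxin response factor MONOPTEROS, fell by 6.22 with 1 array of 35S:WIND1 callus above background, and JKD, a zinc finger partner of SHR and SCR, fell at least 16.4-fold. SCR, ACR4 and SHR were not called, with differences of -0.22, -0.60 and -1.18, and 1 value of SHR was missing in 2,4-D-induced callus. TMO5, a bHLH factor of vascular cells, was the member that rose: its levels were 1.89, -0.29 and -1.19 in 35S:WIND1 callus, against -3.74, -4.89 and -2.94 in 2,4-D-induced callus. PUCHI, an AP2/ERF factor of lateral root initials, is in no list, but fell at least 211-fold, with signals below background on all 35S:WIND1 arrays and levels of 0.63, 1.17 and 1.35 in 2,4-D-induced callus.

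**Figure D2:**
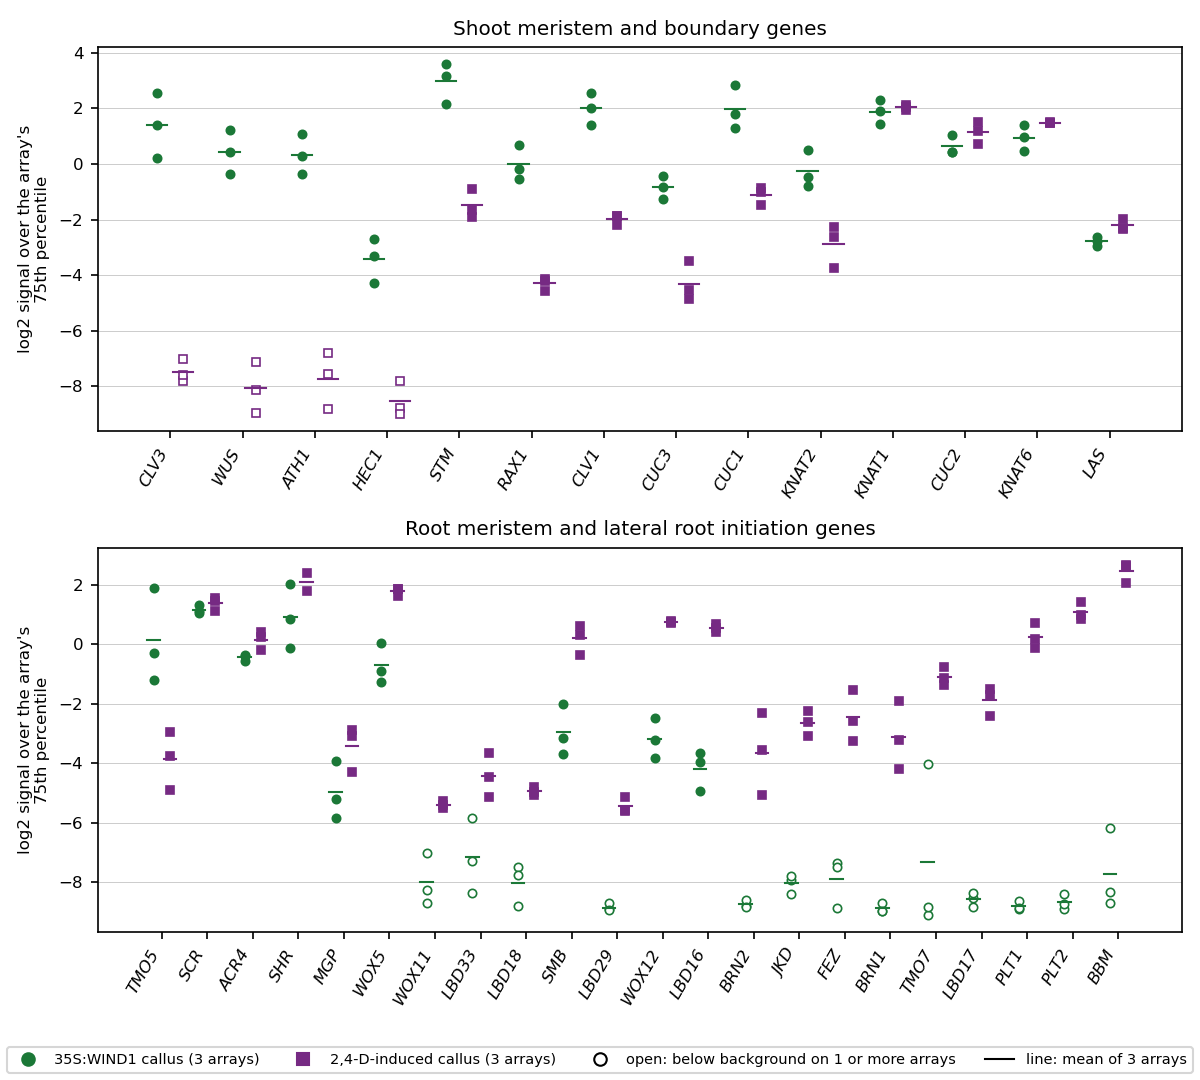
Log2 signal relative to the array's 75th percentile (vertical axis) of each tested shoot meristem gene (top) and root meristem or lateral root gene (bottom), with 3 arrays of 35S:WIND1 callus (green circles, left of each pair) and 3 of 2,4-D-induced callus (purple squares, right). Lines are means, and open symbols mark genes below background on 1 or more arrays of that callus. CLV3 and WUS stand between -0.35 and 2.54 in 35S:WIND1 callus and below -7 in 2,4-D-induced callus. PLT1, PLT2 and BBM stand the other way round, with BBM above background on 1 array of 35S:WIND1 callus.

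Auxin acts by removing Aux/IAA repressors from auxin response factors, and the Aux/IAA and GH3 genes are themselves among the genes that auxin switches on. GH3 enzymes join auxin to amino acids and so lower its free level. Of 27 Aux/IAA genes tested, 15 fell and 1 rose in 35S:WIND1 callus, with a median change of -2.12, and other settings called 10 to 16 lower and 0 to 4 higher. IAA17 (AT1G04250) had levels of -3.80, -3.95 and -1.5 in 35S:WIND1 callus, against 3.6, 4.08 and 4.70 in 2,4-D-induced callus. IAA5 (AT1G15580) had levels of -1.55, -3.70 and -4.27 in 35S:WIND1 callus, against 3.83, 3.14 and 3.25 in 2,4-D-induced callus. Neither gene's arrays overlapped between the calli. IAA17 fell by 7.21 ± 0.79 (SE, adjusted p = 5.48e-05) and IAA5 by 6.58 ± 0.58 (SE, adjusted p = 1.41e-05), and IAA20 and IAA30 fell by 5.10 and 4.70. IAA20 was above background on 2 of 3 arrays of 35S:WIND1 callus. IAA7 was the member that rose, by 2.43 ± 0.44 (SE), with levels of -0.99, -0.50 and -0.30 in 35S:WIND1 callus, against -3.64, -3.43 and -2.02 in 2,4-D-induced callus. Members not called, such as IAA8, IAA16 and IAA28, differed by 0.36, 0.15 and -0.46.

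Among the GH3 enzymes, 5 of 10 members fell and 2 rose, against 11.7% and 16.8% of all genes tested. GH3.3 (AT2G23170) had levels of 1.84, 2.28 and 1.70 in 35S:WIND1 callus, against 7.05, 7.36 and 6.76 in 2,4-D-induced callus. GH3.2 (AT4G37390) had levels of -5.71, -5.53 and -4.93 in 35S:WIND1 callus, against 2.56, 2.41 and 2.31 in 2,4-D-induced callus. The 2 groups were far apart for both, and GH3.3 fell by 5.12 ± 0.54 and GH3.2 fell by 7.82 ± 0.35 (SE). GH3.1, GH3.6 and GH3.5 fell by 3.00, 2.57 and 2.13. The 2 members that rose were GH3.10, by 2.25, and GH3.9, at least 1.89-fold. GH3.17 and JAR1, the enzyme that makes active jasmonate, were not called, with -0.19 and 0.50.

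Genes of auxin synthesis, transport and perception were mixed. Of 27 members, 5 were higher and 6 lower, against 16.8% and 11.7% of all genes tested, so rises were about as frequent as among all genes. The rises were in TAA1 and YUC1, enzymes of auxin synthesis, by 2.68 and 2.23, in YUC4 by 1.72, in the kinase gene WAG1 by 2.14, and in the carrier PIN6 at least 3.78-fold. YUC1 was above background on 1 and WAG1 on 2 of the 3 arrays of 2,4-D-induced callus. The efflux carrier PIN2 (AT5G57090), which acts in the root, was below background on all arrays of 35S:WIND1 callus, with signals of -9.02, -8.78 and -7.93, and had levels of -2.88, -2.45 and -1.80 in 2,4-D-induced callus, a fall of at least 19.6-fold. PIN7 and PIN3 fell by 2.81 and 1.92, WAG2 by 3.89 and YUC6 by 1.28, YUC6 with 1 array of 35S:WIND1 callus above background. The receptors TIR1, AFB2 and AFB5 were not called, with -0.07, 0.54 and 0.28, nor was PIN4, with -0.24. Of 10 auxin response factors, ARF3 rose by 1.04 ± 0.26 (SE) and ARF19, which acts in lateral root initiation, fell by 1.44 ± 0.23 (SE). The other 8 had differences between -0.88 and -0.08.

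Cytokinin signals through a phosphorelay that switches on the A-type response regulators, which in turn dampen it, and CKX oxidases break the hormone down. Of 9 A-type regulators tested, 7 fell in 35S:WIND1 callus and 0 rose, with a median change of -3.50. ARR5 (AT3G48100) had levels of -3.28, -2.10 and -3.03 in 35S:WIND1 callus, against 0.57, 0.88 and 0.86 in 2,4-D-induced callus. ARR4 (AT1G10470) had levels of -0.91, -0.24 and -0.78 in 35S:WIND1 callus, against 3.42, 3.76 and 3.64 in 2,4-D-induced callus. All 3 arrays of each callus lay apart from those of the other, and ARR5 fell by 3.57 ± 0.47 and ARR4 fell by 4.25 ± 0.38 (SE). ARR3 was below background on all 35S:WIND1 arrays and fell at least 70.0-fold, and ARR6, ARR9, ARR7 and ARR15 fell by 5.11, 3.5, 3.2 and 2.41, ARR15 with 1 array of 35S:WIND1 callus above background. ARR8 and ARR16 were not called, with -0.55 and 0.76. In 18 other settings, between 5 and 7 members were called lower and 0 higher.

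Among 27 genes of cytokinin synthesis, turnover and perception, 8 rose and 5 fell, against 16.8% and 11.7% of all genes tested. Of the 6 isopentenyl transferases tested, which make the hormone, 3 rose. IPT3 had levels of -4.36, -1.62 and -2.56 in 35S:WIND1 callus and was below background on all arrays of 2,4-D-induced callus, and the rises were at least 12-fold for IPT3, 8.96-fold for IPT7 and 2.43-fold for IPT5. LOG1 and LOG7, which release the active hormone, rose by 2.42 and 1.76. IPT1, IPT2 and IPT9 were not called, with -0.58, 0.13 and -0.43. The oxidase CKX3 (AT5G56970) had levels of -5.52, -3.36 and -3.48 in 35S:WIND1 callus, against 4.40, 4.38 and 4.01 in 2,4-D-induced callus, and CKX3 fell by 8.39 ± 0.60 (SE, adjusted p = 3.72e-06). CKX5 and CKX6 fell by 4.96 and 2.5, while CKX7 rose by 2.55 and CKX4 at least 2.18-fold. The receptors AHK2, AHK3 and AHK4 were not called, with 0.65, -0.14 and -0.88, nor were the B-type factors ARR1, ARR10 and ARR12, with 0.18, -0.15 and 0.30.

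**Figure D3:**
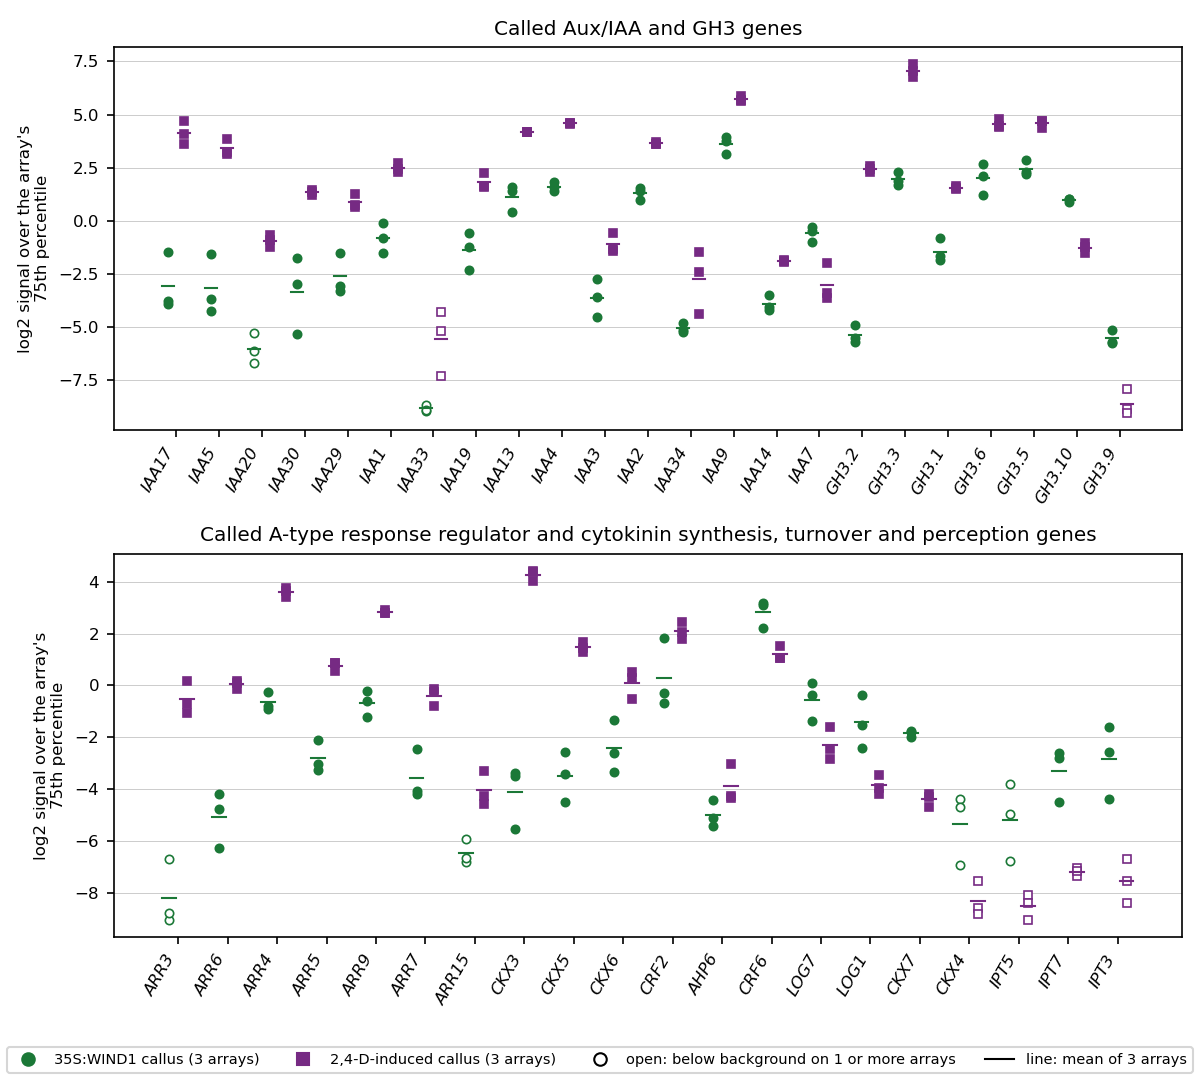
Log2 signal relative to the array's 75th percentile (vertical axis) of the called Aux/IAA and GH3 genes (top) and of the called A-type response regulators and cytokinin synthesis, turnover and perception genes (bottom), with 3 arrays of 35S:WIND1 callus (green circles, left of each pair) and 3 of 2,4-D-induced callus (purple squares, right). Lines are means, and open symbols mark genes below background on 1 or more arrays of that callus. IAA17, GH3.2, ARR3 and CKX3 show the widest gaps below 2,4-D-induced callus in their families, and IPT3 stands above it.

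Regulators of wounding and regeneration changed less as a group. Of 16 members tested, 4 rose and 1 fell, against 16.8% and 11.7% of all genes tested, with a median change of 0.50. ESR1 (AT1G12980), an AP2/ERF factor that promotes shoot regeneration and a known target of WIND1, had levels of 2.2, 2.18 and 1.48 in 35S:WIND1 callus, against -0.64, -1.69 and -2.40 in 2,4-D-induced callus. Its rise was 3.53 ± 0.49 (SE, adjusted p = 0.000268), and its seedling mean was -5.77. ESR2 rose by 4.53 ± 0.87 (SE), although it was above background on only 1 array of 2,4-D-induced callus. ERF109, a gene induced within minutes of wounding, rose by 1.86, and WIND4 at least 1.76-fold. PLT3, which acts in regeneration and lateral roots, fell by 2.43 ± 0.31 (SE). The homologues WIND2 and WIND3 were not called, with 0.26 and -0.53, nor were ERF115, WOX13, PLT5, PLT7 and ANAC071, with 1.55, 0.61, 0.54, 0.46 and -0.62. With normexp correction the difference of WIND4 was -0.12.

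The 12 tested embryo and seed genes had 3 rises and 4 falls, against 16.8% and 11.7% of all genes tested. EM1 and EM6, which encode hydrophilic proteins of the dry seed, rose by 4.01 and 2.71, with EM1 at 1.56, 2.07 and 0.42 in 35S:WIND1 callus, against -3.20, -2.21 and -2.58 in 2,4-D-induced callus. LEC1, a master regulator of embryo identity, had levels of -4.34, -4.27 and -4.04 in 35S:WIND1 callus, against -1.21, -1.56 and -0.35 in 2,4-D-induced callus, a fall of 3.2 ± 0.35 (SE). AGL15, L1L and WRI1 fell by 2.36, 1.04 and 1.01, L1L with 1 array of 35S:WIND1 callus and 2 of 2,4-D-induced callus above background. LEC2 was called higher, but was above background on 1 array of 35S:WIND1 callus and 0 of 2,4-D-induced callus, and normexp correction gave -0.11. FUS3 and ABI3 were not called, with 0.49 and 1.02.

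Of 12 floral identity genes, 6 rose and 3 fell, against 16.8% and 11.7% of all genes tested. The list's median change was 0.95, or 0.45 with members below background at their bounds. PISTILLATA (PI, AT5G20240), a MADS factor of petals and stamens, had levels of -0.08, -2.08 and -0.28 in 35S:WIND1 callus, against 5.09, 5.38 and 5.06 in 2,4-D-induced callus, and fell by 5.99 ± 0.46 (SE). SHP1 and FUL fell by 2.38 and 3.65, FUL with 1 of 3 arrays above background in 35S:WIND1 callus. SOC1, an integrator of flowering signals, rose by 2.41 ± 0.37 (SE), and SEP2, AP1 and LFY rose at least 5.71-fold, 2.51-fold and 1.22-fold, LFY on 2 of 3 arrays of 35S:WIND1 callus. SEP1 had levels of -5.12, 2.74 and -5.18 in 35S:WIND1 callus, so its rise of at least 14.6-fold rests on replicate 2. SHP2 was also called higher, above background on 1 array of 35S:WIND1 callus and 0 of 2,4-D-induced callus.

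Genes of leaf polarity and growth showed 5 rises and 1 fall among 16 members, against 16.8% and 11.7% of all genes tested. AINTEGUMENTA (ANT), an AP2 factor that prolongs organ growth, had levels of 1.90, 2.92 and 1.22 in 35S:WIND1 callus, against -1.75, -1.33 and -1.04 in 2,4-D-induced callus, and rose by 3.39 ± 0.45 (SE). AN3, a growth coactivator that works with GRF factors, had levels of -1.55, -1.02 and -0.79 in 35S:WIND1 callus, against 3.3, 3.56 and 3.55 in 2,4-D-induced callus, and fell by 4.59 ± 0.62 (SE). The abaxial factors FIL and KAN2 rose by 1.64 and 1.52, and GRF5 by 1.42 with 1 array of 2,4-D-induced callus above background, but arrays of FIL overlapped between the calli. YAB5 rose at least 1.79-fold, on 2 of 3 arrays of 35S:WIND1 callus, and had -0.05 with normexp correction. The adaxial HD-ZIP genes PHB, PHV and REV were not called, with -0.19, -0.83 and 0.25.

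All 36 tested genes for photosystem subunits, antenna proteins and electron transport rose in 35S:WIND1 callus, by 1.62 to 5.19 on the log2 scale, with a median of 3.18. LHCB1.1 (AT1G29920), a chlorophyll-binding antenna protein, had levels of 4.11, 4.56 and 5.76 in 35S:WIND1 callus, against 0.11, 0.01 and -1.27 in 2,4-D-induced callus, and rose by 5.19 ± 0.47 (SE, adjusted p = 2.83e-05). The list's median level was 4.11, 4.28 and 4.61 on the 35S:WIND1 arrays, against 1.43, 1.32 and 0.27 on the 2,4-D arrays. No array of one callus reached the range of the other. Seedling arrays were higher still, with medians between 6.59 and 6.85, and T87 arrays had 4.23 to 4.71. Over 18 other settings, 35 or 36 members were called higher and 0 lower.

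All 12 tested carbon fixation genes rose as well, with a median of 3.78. RBCS1A, a small subunit of Rubisco, had levels of 5.94, 5.93 and 6.44 in 35S:WIND1 callus, against 2.46, 2.48 and 0.69 in 2,4-D-induced callus. RBCS1B and RBCS2B were below background on all 2,4-D arrays and rose at least 170.1-fold and at least 133-fold, and RBCS3B rose by 8.05 ± 0.53 (SE). Small subunit genes are close in sequence, so their probes may share signal. Rubisco activase (RCA) and the carbonic anhydrase CA1 rose by 3.19 and 3.04, CA1 with 2 arrays of 2,4-D-induced callus above background. Of 18 chlorophyll synthesis genes and regulators, 14 rose and 0 fell. The regulators that switch on chloroplast genes led: GLK2 had levels of 1.38, 1.68 and 2.5 in 35S:WIND1 callus, against -2.34, -3.14 and -4.84 in 2,4-D-induced callus, GLK1 rose at least 14.8-fold and GNC at least 5.33-fold. GUN4, PORB and CHLH, which act in chlorophyll synthesis, rose by 3.79, 3.65 and 2.96, and CHLD, CHLM and GSA1 were not called, with 0.57, 0.91 and 0.73.

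Of 20 xylem and secondary wall markers tested, 17 rose in 35S:WIND1 callus and 0 fell, with a median change of 3.38. Other settings called 6 to 17 members higher and 0 lower. XCP1 (AT4G35350), a protease of dying vessel cells, had levels of 5.33, 2.37 and 2.47 in 35S:WIND1 callus, against -5.14, -4.35 and -4.56 in 2,4-D-induced callus. CESA8 (AT4G18780), a cellulose synthase of the secondary wall, had levels of 2.54, -0.52 and -1.08 in 35S:WIND1 callus and signals of -7.32, -7.61 and -6.44 in 2,4-D-induced callus, above background on 1 array. Replicate 1 of 35S:WIND1 callus was the highest for both, yet all 3 arrays lay far above those of 2,4-D-induced callus. XCP1 rose by 8.07 ± 0.65 and CESA8 by 7.44 ± 0.77 (SE). XCP2 and CESA4 rose by 8.66 and 6.56, each above background on 2 of 3 arrays of 2,4-D-induced callus. The NAC factors that start vessel formation also rose, VND7 by 4.65, VND4 by 3.80 and VND6 by 2.58, with their targets MYB46 and MYB83 at 4.95 and 2.95. In 2,4-D-induced callus VND6 was above background on 2 arrays and VND4, MYB46 and MYB83 on 1. VND1 was not called, with 0.15. The list's median level was 1.33, -0.78 and -1.42 on the 35S:WIND1 arrays, against -5.22 to -5.43 on the 2,4-D arrays.

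Of 7 phloem markers tested, 4 rose, with a median of 2.55. Other settings called 1 to 4 members higher and 0 or 1 lower. Without the filter on dim probes, the median over 10 members was 0.55. SUC2, the sucrose transporter that loads the phloem, had levels of 2.02, 2.49 and 1.87 in 35S:WIND1 callus, against -1.63, -1.67 and -0.88 in 2,4-D-induced callus, and rose by 3.52 ± 0.40 (SE). SWEET11, PP2-A1 and CLE41 rose by 4.57, 2.69 and 2.55, SWEET11 with 2 arrays of 2,4-D-induced callus above background. The phloem identity factor APL and the sieve element gene SEOR1 were not called, with 0.29 and -1.07. Of 17 epidermis and cuticle markers, 10 rose and 0 fell, with a median of 2.36. CER1, an enzyme of wax alkanes, had levels of 1.63, 2.77 and 2.87 in 35S:WIND1 callus, against -2.31, -1.26 and -1.27 in 2,4-D-induced callus, CER2 rose at least 29.5-fold, and the epidermal identity factors ATML1 and PDF2 rose by 2.73 and 2.2. CER3, DCR and BDG1 were not called, with -0.49, 0.23 and 0.23.

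Stomata and trichome genes were split, with 7 of 17 higher and 3 lower, against 16.8% and 11.7% of all genes tested. MYB60, a factor of guard cells, had levels of -0.28, 0.51 and 1.13 in 35S:WIND1 callus, against -7.26, -5.82 and -6.10 in 2,4-D-induced callus, where 1 array was above background. The receptor kinase gene ER and its homologues ERL1 and ERL2 rose by 5.46, 6.5 and 4.35, ERL1 with 1 array of 2,4-D-induced callus above background, and the peptide gene EPF1 rose at least 26.9-fold. FAMA, which ends the guard cell lineage, rose at least 3.08-fold on 2 of 3 arrays of 35S:WIND1 callus, while SPCH and MUTE, which open it, were not called, with 0.57 and 0.93. GL3, a bHLH factor of trichomes, fell at least 9.80-fold, and GL2 and CPC fell by 1.26 and 1.55, GL2 with 1 array of 35S:WIND1 callus above background. Slides differed here: the median change of the list was 0.01, 0.94 and 3.51 on slides 1 to 3.

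Root hair and endodermis markers did not move as a block. Of 18 tested, 3 were higher and 5 lower, against 16.8% and 11.7% of all genes tested. The root hair genes EXPA7, EXPA18 and COBL9 rose by 5.46, 4.52 and 4.44, and EXPA7 had levels of -0.08, 0.40 and 1.11 in 35S:WIND1 callus, against -6.17, -4.58 and -4.21 in 2,4-D-induced callus. RHD6, the bHLH factor that starts root hairs, had the opposite sign, with -2.80, -2.06 and -2.14 in 35S:WIND1 callus, against 1.1, 0.90 and 0.99 in 2,4-D-induced callus, and fell by 3.33 ± 0.42 (SE). WER, the MYB factor of non-hair cells, was below background in 35S:WIND1 callus and fell at least 23.9-fold, and MYB36, which switches on the Casparian strip, fell by 2.74 with overlapping arrays. The suberin enzymes FAR4 and CYP86A1 fell by 4.73 and 3.49, each above background on 2 of 3 arrays of 35S:WIND1 callus. The Casparian strip genes CASP1 to CASP5 were not called and lay between -0.52 and 0.34.

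Dehydration and abscisic acid genes were higher in 35S:WIND1 callus, with 10 of 18 members called higher and 2 lower and a median of 2.46. The shares of all genes tested were 16.8% higher and 11.7% lower. RAB18 (AT5G66400), a dehydrin that abscisic acid induces, had levels of 0.74, 0.65 and 1.59 in 35S:WIND1 callus, against -4.70, -4.88 and -5.91 in 2,4-D-induced callus, and rose by 6.16 ± 0.51 (SE). LTP4, a lipid transfer protein, had levels of 3.39, 4.2 and 4.94 in 35S:WIND1 callus and signals of -8.57, -7.66 and -5.80 in 2,4-D-induced callus, above background on 1 array. It rose by 11.52 ± 1.45 (SE). COR15A rose at least 17.1-fold, ERD10, RD29A and COR47 rose by 4.32, 3.05 and 2.89, and NCED3, the enzyme that limits abscisic acid synthesis, rose by 3.00 with 1 array of 2,4-D-induced callus above background. ABI2, a phosphatase that blocks the signal, and ABI5 fell by 1.13 and 1.08, but arrays of ABI5 overlapped between the calli. ABF3 and ABI1 were not called, with 0.33 and -0.11.

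Jasmonate genes had 13 rises and 2 falls among 30 members, against 16.8% and 11.7% of all genes tested, with a median of 1.23. LOX2 (AT3G45140), a lipoxygenase of jasmonate synthesis, had levels of 1.82, 2.94 and 5.97 in 35S:WIND1 callus and signals of -5.12, -5.88 and -4.17 in 2,4-D-induced callus, where 2 arrays were above background. CORI3 rose by 8.77 and LOX2 by 8.63, JAZ9, a repressor of the pathway that the hormone removes, by 4.2 ± 0.60 (SE), and LOX3, LOX4 and AOC2 by 3.59, 3.65 and 3.36. CORI3 and AOC2 were above background on 1 array of 2,4-D-induced callus. ERF1, which joins jasmonate and ethylene signals, had levels of 1.03, -0.11 and -0.71 in 35S:WIND1 callus, against 3.2, 3.23 and 2.56 in 2,4-D-induced callus, and fell by 2.92 ± 0.43 (SE). VSP1 fell by 1.82 with an adjusted p of 0.0497, and its arrays overlapped. The factor MYC2 and JAZ1 were not called, with 0.64 and -0.27.

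Salicylate and defence genes went both ways, with 4 of 16 higher and 3 lower, against 16.8% and 11.7% of all genes tested. PR2 rose at least 31.7-fold, with levels of -4.02, -0.51 and 0.13 in 35S:WIND1 callus, PR5 rose by 3.07 with 1 array of 2,4-D-induced callus above background, and WRKY53 by 2.09. ICS1, the enzyme of salicylate synthesis, PAD4 and WRKY70 fell by 1.39, 1.69 and 1.44, ICS1 and WRKY70 with overlapping arrays. PR1, the usual marker of the pathway, was not called, with -0.02. Glutathione transferases and other genes of detoxification had 6 rises and 5 falls among 23 members. GSTU20 rose by 8.21, above background on 1 array of 2,4-D-induced callus, and UGT74E2 by 2.76, while GSTU1 had levels of -0.51, -0.10 and -0.47 in 35S:WIND1 callus, against 2.43, 2.32 and 2.48 in 2,4-D-induced callus. GSTU2, GSTU1 and GSTU4 fell by 3.21, 2.77 and 2.19, and the auxinic compound exporter ABCG37 by 2.07 ± 0.18 (SE).

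Of 13 heat shock genes tested, 7 were called higher in 35S:WIND1 callus and 0 lower, and 2 to 9 were called higher in other settings. HSP18.2 had levels of -0.97, 0.62 and -0.40 in 35S:WIND1 callus, against -2.87, -1.49 and -2.13 in 2,4-D-induced callus, and rose by 1.91 ± 0.42 (SE). HSP21, HSP23.6 and HSP17.6A rose by 2.44, 2.12 and 1.87, HSP21 with overlapping arrays and 2 arrays of 2,4-D-induced callus above background. HSP70, HSP90.1 and HSP101 were not called, with 0.09, -0.04 and -0.10. T87 callus was higher than either, with means of 3.77 for HSP18.2 and 2.57 for HSP21.

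Genes that low oxygen induces were lower in 35S:WIND1 callus. Of 11 members, 8 fell and 0 rose, with a median of -2.06, and other settings called 5 to 10 lower and 0 higher. HRE1, an ERF factor of the hypoxic response, had levels of -1.44, -0.93 and -0.56 in 35S:WIND1 callus, against 2.73, 2.72 and 2.49 in 2,4-D-induced callus, and fell by 3.62 ± 0.20 (SE, adjusted p = 8.43e-07). PDC1, which opens ethanol fermentation, had levels of -3.90, 1.48 and -1.95 in 35S:WIND1 callus, against 2.90, 3.23 and 3.51 in 2,4-D-induced callus, and replicate 2 stood well above the other two. PDC1 fell by 4.67 ± 1.02 (SE), SUS4 by 4.31, ADH1 by 2.35 and the oxygen-sensing oxidases PCO1 and PCO2 by 1.88 and 2.89. HRE2 and the haemoglobin HB1 were not called, with 0.19 and -1.24. On slides 1 to 3 the median change was -3.20, -0.98 and -2.17.

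Glucosinolates are sulphur compounds of the defence of this plant family, and myrosinases split them. Of 19 genes tested, 12 rose and 1 fell, with a median of 3.3, or 2.04 with members below background at their bounds. Other settings called 1 to 15 members higher and 0 or 1 lower. MYB29 (AT5G07690), a regulator of the aliphatic branch, had levels of 0.26, 0.51 and 0.70 in 35S:WIND1 callus and signals of -8.52, -7.49 and -8.87 in 2,4-D-induced callus, all below background. CYP83A1 (AT4G13770) had levels of 2.1, 3.65 and 3.45 in 35S:WIND1 callus and signals of -9.07, -8.05 and -7.19 in 2,4-D-induced callus, also below background. Both were measured in every 35S:WIND1 callus, and the rises were at least 124-fold and at least 739-fold. Other genes of the aliphatic branch rose too: MAM1 by 9.20, above background on 1 array of 2,4-D-induced callus, BCAT4 by 8.59 and CYP79F1 by 7.92, above background there on 2 arrays and 1, and MYB28 at least 16.1-fold. The myrosinase TGG1 rose at least 151-fold, with levels of -0.34, -0.87 and 3.55 in 35S:WIND1 callus. In the indolic branch, MYB51 fell by 1.44, CYP79B2 rose by 1.17 with overlapping arrays, and CYP79B3 and CYP83B1 were not called, with -0.16 and 0.47. Seedling means were 5.11 for CYP83A1 and 2.67 for MYB29.

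Flavonoid genes had 11 rises and 1 fall among 15 members, with a median of 2.87, or 1.68 with members below background at their bounds. Other settings called 2 to 11 members higher and 0 or 1 lower. DFR, the enzyme at the branch to anthocyanins, had levels of -3.45, -2.04 and -0.44 in 35S:WIND1 callus, LDOX had -4.82, -3.46 and -1.5, and both were below background in 2,4-D-induced callus. They rose at least 22.4-fold and at least 9.21-fold. MYB75, which switches on anthocyanin synthesis, rose at least 17.5-fold and UGT79B1 at least 12.3-fold. MYB11, a factor of flavonol synthesis, had the opposite sign: it was below background in 35S:WIND1 callus, had levels of -3.08, -2.86 and -2.40 in 2,4-D-induced callus and fell at least 14.8-fold. MYB12, MYB111 and FLS1 of the flavonol branch were not called, with -1.20, 0.09 and -0.46.

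Of 22 expansins and xyloglucan transferases, which loosen and rebuild the wall, 10 rose and 4 fell, against 16.8% and 11.7% of all genes tested. XTH18 had levels of 3.92, 3.77 and 4.28 in 35S:WIND1 callus, against 0.99, 1.2 and 1.08 in 2,4-D-induced callus, and rose by 2.90 ± 0.20 (SE). EXPA6, XTH19 and XTH9 rose by 2.5, 2.37 and 2.34. XTH20, EXPA17, EXPA1 and XTH5 fell by 3.04, 1.72, 1.48 and 1.42, EXPA17 with 2 of 3 arrays of 35S:WIND1 callus above background. Among 12 nitrogen genes, 2 rose and 3 fell, against 16.8% and 11.7% of all genes tested. GLN2, the plastid glutamine synthetase, rose by 2.64 ± 0.18 (SE) and NIR1 by 1.24. The nitrate reductase NIA1, with -0.37, 0.10 and -0.25 in 35S:WIND1 callus, against 2.21, 2.84 and 3.53 in 2,4-D-induced callus, fell by 3.04 ± 0.30 (SE). ASN1 and NRT2.6 fell by 2.80 and 3.36, and NIA2 was not called, with -0.06.

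Few core genes of cell division were called, but their number depended on scaling. Of 18 DNA replication genes, 2 fell and 0 rose, and of 25 mitosis genes, 3 fell and 1 rose, against 11.7% lower and 16.8% higher over all genes tested. The median of the replication list was 0.30, -0.42 and -1.48 on slides 1 to 3, and that of the mitosis list 0.27, -0.48 and -1.64, so the sign of neither held across slides. With arrays scaled by their median, 6 of the 18 replication genes and 11 of the 25 mitosis genes were called lower and 0 and 1 higher. POLA2 and ORC1A fell by 1.1 and 1.53, ORC1A with 1 array of 35S:WIND1 callus and 2 of 2,4-D-induced callus above background, and the cyclins CYCA2;4, CYCB2;1 and CYCB2;2 fell by 2.26, 1.72 and 1.08. CYCA2;1 rose by 1.32, above background on 1 array of 2,4-D-induced callus, and CYCB1;1 was not called, with 1.00. Among 18 D-type cyclins and inhibitors of cyclin-dependent kinases, 4 rose and 1 fell. SMR1 and KRP2, which restrain the cycle, rose by 4.32 and 1.79, SMR1 with 2 arrays of 2,4-D-induced callus above background and KRP2 with levels of 1.19, 1.98 and 1.48 in 35S:WIND1 callus, against -0.63, -0.12 and 0.03 in 2,4-D-induced callus. CYCD1;1 and CYCD2;1 rose by 1.26 and 1.12, CYCD6;1, a target of SHR and SCR, fell by 2.61, and CYCD3;1 was not called, with -0.80.

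In 4 further lists few members or none were called. None of 14 ribosome and nucleolus genes and none of 14 Polycomb and DNA methylation genes passed limma's test and the 2-fold threshold. Their differences lay between -0.57 and 0.36 and between -0.80 and 0.93. Of 11 clock genes, 2 fell and 0 rose, against 11.7% lower and 16.8% higher over all genes tested. PRR5 and PRR7 fell by 1.71 and 1.24, PRR5 with overlapping arrays. CCA1, LHY and TOC1 were not called, with 0.78, 0.51 and -0.86. Of 11 housekeeping genes, GAPC1 was called, with 4.55, 4.86 and 4.81 in 35S:WIND1 callus, against 3.29, 3.83 and 4.06 in 2,4-D-induced callus, and a rise of 1.02 ± 0.19 (SE). ACT2, UBQ10 and PP2AA3 had differences of 0.66, 0.08 and -0.25.

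A tonoplast water channel had the largest rise among genes with a symbol that were measured on all 6 arrays. TIP2;2 (AT4G17340) had levels of 6.42, 5.67 and 6.93 in 35S:WIND1 callus, against -4.49, -5.36 and -3.75 in 2,4-D-induced callus, and rose by 10.87 ± 0.50 (SE, adjusted p = 3.21e-07). GAMMA-TIP (AT2G36830) had levels of 6.98, 6.38 and 7.14 in 35S:WIND1 callus, against -2.38, -1.32 and -1.23 in 2,4-D-induced callus. TIP2;3 was below background in every 2,4-D-induced callus and rose at least 742-fold, with levels of 3.36, 2.18 and 3.68 in 35S:WIND1 callus. These 3 channel genes are related in sequence, and the probes could share signal. Other large rises among genes measured on all 6 arrays were those of RD20, a calcium-binding protein of drought, by 8.51, of XCP1 and RBCS3B, and of CYP708A3 by 7.84. PIF4 and PIL6, bHLH factors that phytochrome removes in light, rose by 7.30 and 6.93, ZF14, a transporter of the MATE family, by 7.03 and ERD9, a glutathione transferase, by 6.97. Among genes below background in every 2,4-D-induced callus, NRT1.7, which moves nitrate out of old leaves, rose at least 453-fold. In the same set, CEN2, a centrin, rose at least 417-fold and ESM1, which directs glucosinolate breakdown, at least 407-fold. CEN2 lies in a run of neighbouring genes on chromosome 3 that all rose, described below.

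The deepest falls among genes with a symbol measured on all 6 arrays included genes of hormone turnover and response. ARD3 (AT2G26400), an enzyme of the cycle that recovers methionine, had levels of -5.98, -2.65 and -1.87 in 35S:WIND1 callus, against 5.16, 5.53 and 5.69 in 2,4-D-induced callus, and fell by 8.96 ± 0.91 (SE, adjusted p = 3.37e-05). HA4 (AT3G47950), a proton pump of the plasma membrane, had levels of -5.0, -5.43 and -2.41 in 35S:WIND1 callus, against 4.27, 3.99 and 2.85 in 2,4-D-induced callus. CKX3, GH3.2, IAA17 and IAA5, given above, were among the 10 deepest of these. MAKR6, of a family of membrane-associated kinase regulators, fell by 7.29, cwINV6, a cell wall enzyme for fructans, by 6.71, and the homeobox gene HB53 by 6.30. The calmodulin-binding iqd15 fell by 6.31. Among genes below background in every 35S:WIND1 callus, QQS (AT3G30720), an orphan gene that affects starch, had levels of 1.62, 1.62 and 1.86 in 2,4-D-induced callus and fell at least 325-fold. RBK2, a receptor-like kinase of the cytoplasm, fell at least 189-fold.

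Replicates of 35S:WIND1 callus differed from each other in sets of genes with large ranges. FTM1 had levels of -6.15, 1.39 and -0.62 there, against 3.51, 3.99 and 4.13 in 2,4-D-induced callus, and fell by 5.67 ± 1.49 (SE). PME2, a pectin methylesterase, had 3.58, -2.74 and -0.75 in 35S:WIND1 callus, against -2.48, -2.78 and -4.31 in 2,4-D-induced callus, with an adjusted p of 0.0557. CYP81F4 had 2.33, -4.08 and -0.83, NAS3 had -1.13, -2.95 and 2.92, BAM5 had -3.20, 1.36 and 2.66, TGG2 had -5.48, -4.20 and 0.31, and AGP41 had -0.28, -5.78 and -4.38 in 35S:WIND1 callus. Replicate 1 was lowest for FTM1, BAM5 and NRT2.6 and highest for PME2, CYP81F4 and AGP41, and replicate 3 was highest for NAS3 and TGG2.

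The ranges of 2,4-D-induced callus were smaller but reached several log2 units for some genes. SQE6, of the squalene epoxidase family, had 2.21, 1.61 and 4.68 in 35S:WIND1 callus, against 0.18, -2.08 and -4.67 in 2,4-D-induced callus, and rose by 5.03 ± 1.09 (SE). CAD2 had 0.04, -0.31 and -2.20 in 35S:WIND1 callus, against -2.88, -5.11 and -6.76 in 2,4-D-induced callus. MAF1, a repressor of flowering, had 1.04, 1.1 and 0.64 in 35S:WIND1 callus, against -4.65, -4.73 and -1.11 in 2,4-D-induced callus. In most of these genes replicate 3 was the lowest 2,4-D array, as for AGO5 at -6.76, SCPL13 at -4.43, LAS1 at -5.33, GulLO2 at -4.64, SNG1 at -2.63, PMDH2 at -5.84 and CYP71B14 at -6.57. Of these 7 genes, AGO5, GulLO2 and PMDH2 were called.

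Changes were also followed along the chromosomes, in windows chosen after their values were seen. The genes AT3G50210 to AT3G50520 of chromosome 3 form a run of 24 neighbouring tested genes, and all 24 were called higher in 35S:WIND1 callus. The 20 genes below background on every 2,4-D array have bounds from at least 1.90-fold (AT3G50230) to at least 417-fold (CEN2). The median level of all 24 genes was -0.25, -1.05 and -0.87 on the 35S:WIND1 arrays, against -8.64, -7.65 and -8.61 on the 2,4-D arrays. All 24 were above background on every 35S:WIND1 array. The other 4 genes, above background on 1 or 2 of the 2,4-D arrays, rose by 6.33 to 8.26. The run holds genes without a shared role, such as IRX15 of xylan synthesis, the kinase SNRK2.2 of abscisic acid signalling, the DOF factor OBP1, the centrin CEN2 named above and the bHLH gene HEC2. In T87 callus the run's median level was -1.71, -1.40 and -1.09. Seedling replicates 1 and 3 had -2.86 and -1.96, but seedling replicate 2 had -7.61, close to 2,4-D-induced callus. The run ended sharply. Of the 10 tested genes before it, 1 was called higher and 3 lower. Among these 3, AT3G50120 was below background on every array of both calli. Of the 10 genes after the run, 3 were called higher and 0 lower. Among windows of 25 genes that did not overlap the fullest one, the next held 16 genes called higher. The median of all 21100 windows, which overlap each other, was 4.

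**Figure D4:**
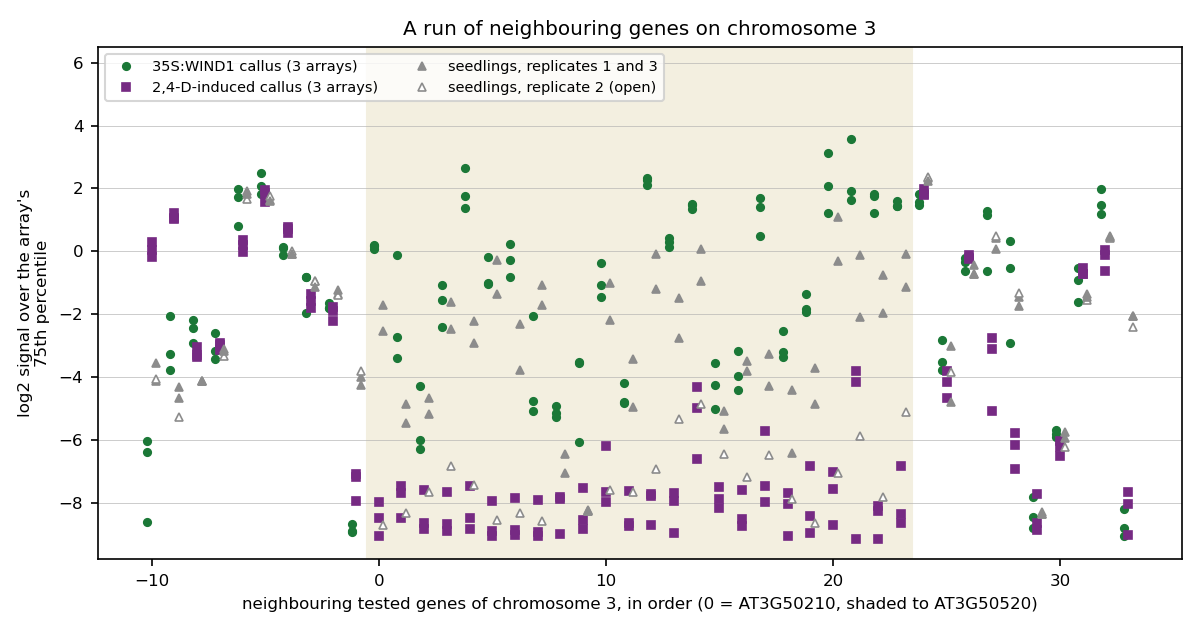
Log2 signal relative to the array's 75th percentile (vertical axis) of 44 neighbouring tested genes of chromosome 3 in order (horizontal axis), for the 3 arrays of 35S:WIND1 callus (green circles), 2,4-D-induced callus (purple squares) and seedlings (grey triangles, replicate 2 open). In the shaded run of 24 genes the 35S:WIND1 arrays have median levels between -1.05 and -0.25 and the 2,4-D arrays between -8.64 and -7.65, and seedling replicate 2 lies beside the 2,4-D arrays.

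Chromosome 2 differed from the others in the comparison. The median change was 0.24 over its 3249 genes and lay between -0.17 and -0.10 on chromosomes 1, 3, 4 and 5. On chromosome 2, 21.2% of genes were called higher and 8.34% lower, against 16.0% and 12.3% on the other chromosomes together. Set against the seedling mean, the median on chromosome 2 was 0.06, -0.04 and 0.01 on the 35S:WIND1 arrays, against -0.25, -0.16 and -0.19 on the 2,4-D arrays. On the other chromosomes together it was 0.08, 0.08 and 0.04 on the 35S:WIND1 arrays and 0.17, 0.24 and 0.24 on the 2,4-D arrays. The shift thus lay in 2,4-D-induced callus, and in 9 of 10 equal stretches of chromosome 2. T87 callus had -0.23, -0.16 and -0.18 on chromosome 2. When each array was centred by chromosome, 3464 genes were called higher and 2493 lower.

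Replicate 2 of 35S:WIND1 callus stood apart in stretches of chromosomes 2, 4 and 5. Its difference from the mean of replicates 1 and 3, as a running median over 51 genes, lay below -0.4 in 12 runs with 1235 genes, among them AT5G48175 to AT5G52540 with 359 genes and AT2G44700 to AT2G46250 with 139. Within the runs the medians against the seedling mean were 0.08, -0.74 and 0.03 on the 35S:WIND1 arrays, and 0.10, 0.14 and 0.17 on the 2,4-D arrays. Replicate 3 of 35S:WIND1 callus had 1 such run of 19 genes, and replicate 1 and all 2,4-D arrays had 0. Runs in which an array was high were not sought. The median SD of 35S:WIND1 callus was 0.575 in the runs and 0.341 outside them. This larger SD and the low median of replicate 2 follow from how the runs were chosen. Of the genes in the runs 14.3% were called higher and 15.1% lower, against 17.0% and 11.4% outside. Of 215 genes named by the rules, 17 lie in these runs, among them CKX3, GH3.2, IAA20, TIP2;3, PIN2 and SOC1. Without the values of replicate 2 in the runs, 3618 genes were called higher and 2450 lower.

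**Figure D5:**
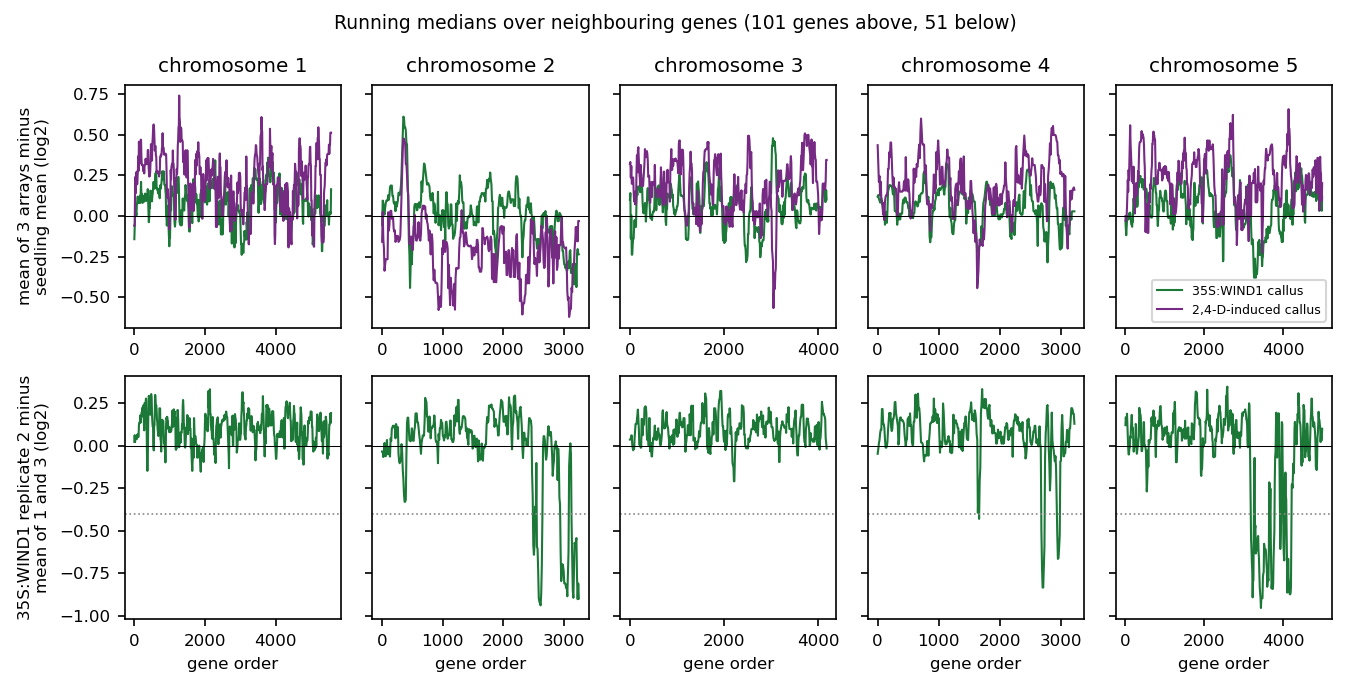
Top, running median over neighbouring genes of the mean level minus the seedling mean (log2) along chromosomes 1 to 5, for 35S:WIND1 callus (green) and 2,4-D-induced callus (purple). Bottom, running median over 51 genes of 35S:WIND1 replicate 2 minus the mean of replicates 1 and 3 (log2), with a dotted line at -0.4. 2,4-D-induced callus lies below 0 along most of chromosome 2, and replicate 2 falls below the dotted line in 12 runs on chromosomes 2, 4 and 5.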

How the data were processed

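Cy3-labelled total RNA was hybridised to Agilent arrays of one colour, and the intensity files were deposited by the authors as scanner output; per the submitters' processing notes they were made with Feature Extraction 9.1.3.1. The authors' series table was found, from the scanner values, to hold processed signals as natural log values, less a constant for each group, and it served only as an alternative. Which centring the authors meant, and the genome build, are not given in the sources used here. Column medians of that deposited table were -1.93, -1.56 and -2.02 in 35S:WIND1 callus and -2.49, -2.70 and -2.34 in 2,4-D-induced callus.

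From the processed signals, log2 was taken and the array's own 75th percentile, over spots other than controls, subtracted. Control and outlier spots were left out, and each gene was represented by its brightest probe. Of 37478 probes, 26236 carried a locus code, of 25665 loci, and 25449 of these were in the RefSeq table for TAIR10.1, which gave symbols to 10189. All 12 arrays entered 1 limma fit (limma 3.58.1, R 4.3.3) without a block, and p-values were adjusted over all genes tested. In data simulated for this comparison, 73 of 100 genes changed by 1.5 on the log2 scale and 88 of 100 changed by 3 were called, and 10 of 20755 unchanged genes. The simulated noise was independent, with the same spread in every group, and far fewer genes changed than the 28.5% called here. These rates need not hold for the real arrays. Each replicate is a different callus per the labels' titles and protocols. The replicate number marked the slide; same-numbered arrays did not deviate together, with correlations of -0.02, 0.06 and -0.14, so they were not treated as pairs.

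The members and lists were chosen with earlier results of these data known. Genes named were WIND1, the 10 largest rises and falls with a symbol measured on all 6 arrays without overlap, the 5 largest bounds per direction, up to 4 called members per list and direction, the 10 widest ranges in each callus and, by their role, further list members with their values. The genes of the chromosome runs were chosen after their values were seen. Alternatives were normexp correction (offset 50, on the median signal, since that is the column the files hold), quantile and median scaling, the deposited values, other filters, mean of probes, 6 arrays alone, a replicate block, array weights and each array left out. Centring by chromosome and leaving out the low runs of 1 array were added after seeing the data. Promoter motifs were not analysed here. The result of 1 list member is not reported here.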

Additional observations from a re-analysis of the deposited data

Results flagged for a closer look

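Probes without a locus code, 11242 in number and named by position or by other codes, entered no test. Of these, 37 were well above background on all 3 arrays of 35S:WIND1 callus and on none of 2,4-D-induced callus or seedlings, and 26 of the 37 are named by position. In the other direction, 54 were above background on all 3 arrays of 2,4-D-induced callus and on none of 35S:WIND1 callus or seedlings, 40 of them named by position. Of the 37 and the 54 probes, 8 and 19 were also above background on all 3 arrays of T87 callus. They were singled out because they carry signal outside the genes tested. Groups of 3 arrays are too small for the test of a single outlying sample, so none was made.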

How the results depend on the processing

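The number of calls depended on background correction and filter. Normexp correction gave 2621 calls, 1650 higher and 971 lower, and a filter of all 6 arrays above background gave 4048 with 2201 higher, over fewer genes. Scaling moved the split: 59.0% of called genes were higher in 35S:WIND1 callus as reported, 42.8% with median scaling (4011 lower) and 82.5% with the deposited values (6277 higher, 1335 lower), and the median of all genes was -0.07, -0.39 and 0.58 in these. WIND1 passed the threshold with the deposited values, at 1.37 (adjusted p = 0.000964). Its adjusted p was above 0.05 with normexp (0.0944), median scaling (0.161), the 6 arrays alone (0.0692) and without 35S:WIND1 replicate 1, 2,4-D replicate 2 or 2,4-D replicate 3 (0.058 to 0.0609). Leaving out each array in turn gave 5776 to 6376 calls, 3389 to 3750 higher and 2337 to 2626 lower, and 678 to 923 and 236 to 339 genes detected in 35S:WIND1 and in 2,4-D-induced callus alone (971 to 1159 in all). A replicate block left 3553 genes called higher and 2470 called lower, and 4 named genes lost their call under it. A fit of the 6 arrays alone gave 5279 calls, 3146 higher and 2133 lower, and 21 named genes lost their call. Of 3473 values of 197 named genes under alternatives, 3219 kept side and direction. This pooled count hides a larger loss under normexp correction, where 109 of the 197 genes kept both, 85 lost their call and 3 turned sign. No more than 109 of the named genes therefore kept side and direction under every alternative. With normexp the sign turned for WIND4 (-0.12), LEC2 (-0.11) and YAB5 (-0.050), and for the medians of floral (-0.15), embryo (-0.10), salicylate (-0.24) and leaf polarity genes (-0.0025). With all 6 arrays above background it turned for floral (-2.38), embryo (-1.01) and salicylate genes (-0.33). With the deposited values it turned for auxin synthesis and transport (0.39), auxin response factors (0.045), cytokinin synthesis (0.52), glutathione transferases (0.62), replication (0.14), mitosis (0.093), ribosome (0.40), root endodermis (0.36), Polycomb (0.31) and clock genes (0.38). Median scaling turned salicylate (-0.28), D-type cyclin (-0.11) and housekeeping genes (-0.21). Median scaling and the deposited values moved the list medians about as much as the median of all genes. For example, auxin synthesis and transport genes lay at -0.19 against that median as reported and in both of these settings. Array weights turned salicylate (-0.31), root endodermis (0.044) and housekeeping genes (-0.0066). Quantile scaling and centring by chromosome turned salicylate genes (-0.020 and -0.15). Leaving out each array in turn gave medians of -0.30 to 0.86 for salicylate genes, -0.42 to 0.36 for glutathione transferases (above 0 without 35S:WIND1 replicate 1 or 2,4-D replicate 2), -0.14 to 0.10 for cytokinin synthesis (above 0 without 2,4-D replicate 2) and -0.059 to 0.24 for housekeeping genes (below 0 without replicate 3 of either callus). In all, 34 of 666 list medians turned, and 21 of 37 lists did not turn under any alternative run. The cause was not tested. Genes below background have only bounds, and 3 arrays a callus limit the precision.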

Other observations

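Families grouped by the stem of their symbols were chosen after the values were seen and are given without a test. Only families with a large share of members called in one direction were kept, so their high shares follow from that choice. Some, such as the LHCB and XTH genes, overlap the lists above, and IRX15 lies in the run on chromosome 3. Higher in 35S:WIND1 callus were 9 of 9 LHCB antenna genes, 8 of 10 IRX genes of the secondary wall, 8 of 9 RHS genes of root hairs and 14 of 27 AGP genes, which encode arabinogalactan proteins. Of 27 XTH genes 16 were called higher and 5 lower, of 20 PIP water channels 11 and 2, and of 16 SPL factors 8 were called higher. Lower were 7 of 11 WOX homeobox genes, with 2 higher, 5 of 10 NF-YA subunits, with 2 higher, and 5 of 9 HTA genes, which encode histone H2A. Over all genes tested, 16.8% were called higher and 11.7% lower, but families kept for their high shares cannot be tested against these.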
